A study of Homo sapiens with 10 samples.

Results

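Imprinted genes are genes of which mainly the copy from a single parent is transcribed. The 10 described here were chosen by name: IGF2, H19, MEG3, DLK1, PEG3, PEG10, MEST, SNRPN, CDKN1C and NNAT. A deposited transcript counted as a member when any part of its gene name was one of these names, which gave 87 of 99493 transcripts under 10 of 57110 gene identifiers. Of these identifiers, 4 join a member with overlapping genes and hold 65 of the 87 transcripts. IGF2 is joined with INS-IGF2 and INS, MEG3 with MEG8 and AL117190.1, PEG3 with ZIM2, and SNRPN with SNURF, SNHG14 and AC124312.1. Where it mattered, the transcripts that GENCODE 29 names for the member itself were summed apart, and these sums are called its own transcripts.

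RNA of 7 human ovarian cancer cell lines was read as long molecules on nanopore instruments, in 10 libraries made to benchmark a transcript quantification package. COV362, COV504, OVKATE, OVMANA, OVTOKO and SK-OV-3 had 1 library each on the PromethION. IGROV-1 had 2 PromethION libraries and 2 on the MinION, a smaller instrument of the same kind. The labels name no treatment or genetic change for any line, and do not say whether the IGROV-1 replicates came from separate cultures.

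An imprinted gene carries different DNA methylation on its maternal and paternal copies at a control region, set in the germ line and kept through cell division. IGF2, MEST, PEG10, PEG3, DLK1, NNAT and SNRPN are known to be read mainly from the paternal copy, and H19, MEG3 and CDKN1C mainly from the maternal copy. Many act on growth before birth, and their levels are known to be altered in tumours. Neither the parental copy nor methylation was measured here, so each value below is the RNA of both copies together.

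The libraries held 1729782 to 3666224 counts. Levels are CPM, counts scaled to an equal total in every library, which are not divided by transcript length, so values are compared between libraries and not between genes. A count of 0 allows up to 3 counts, which is 1.18 to 1.73 CPM in a library of the 6 other lines, 0.64 CPM over both IGROV-1 PromethION libraries and 0.43 CPM over both MinION libraries. All intervals are 95% intervals and cover counting error only. In bulk RNA, fewer cells with a transcript and less of it per cell cannot be told apart. Mitochondrial ribosomal RNA took 9.13% and 10.95% of the counts in the IGROV-1 PromethION libraries and 1.01% to 3.31% elsewhere. Its part in the results was not tested beyond the fit without it.

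The 10 genes together held 0.0217% of the counts in SK-OV-3, the lowest share, and 0.1835% in OVKATE, the highest. Between 4 and 6 of them were detected in a library with at least 1 count, and between 2 and 6 with at least 5 counts. PEG10, MEST, SNRPN and CDKN1C had counts in all 10 libraries. IGF2 and H19 were at or near 0 in most libraries and high in 1 or a few. MEG3, DLK1 and NNAT had no count in any library, and PEG3 had 1 count in 1 library.

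**Figure D1:**
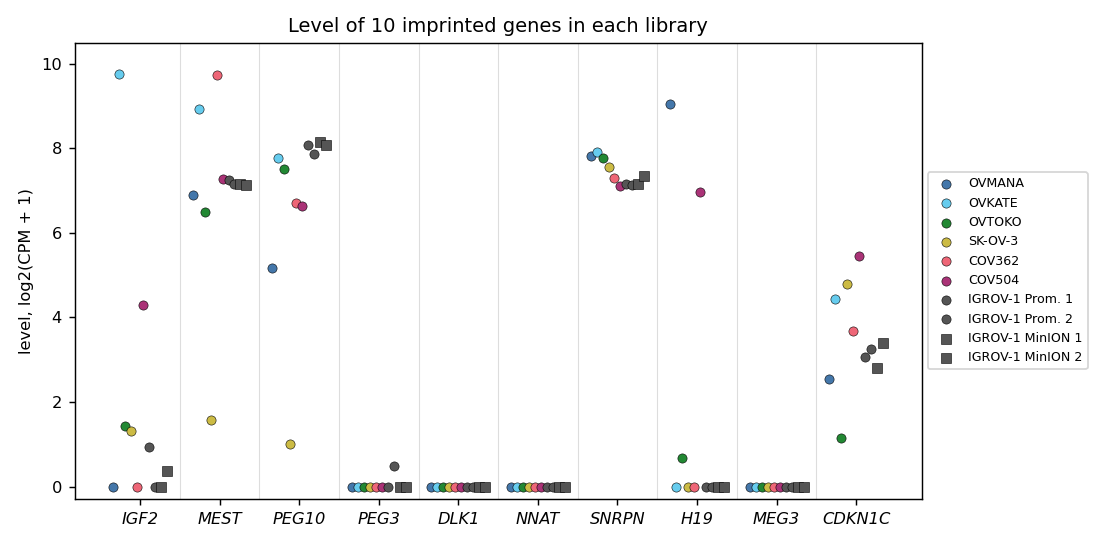
Level of each of the 10 genes on a log2(CPM + 1) axis, with 1 point for each of the 10 libraries, coloured by line, circles for PromethION and squares for MinION. The IGF2 point of OVKATE and the H19 point of OVMANA lie far above the other libraries of their gene, the SK-OV-3 points of MEST and PEG10 lie far below, and MEG3, DLK1 and NNAT lie at 0 throughout.

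The sequences that the results turn on are the start regions of MEST and SNRPN and the microRNA held by H19. They come from RefSeq on GRCh38.p14, whose table has promoter windows for 4 of the 10 genes. The first pair are the bases just upstream of the start sites of MEST, a gene with separate start sites that the lines used differently. Both windows are on the plus strand, at chr7:130485925-130486170 for the upstream start and chr7:130491835-130492057 for the downstream start. The third lies at chr15:24954737-24954926 on the plus strand, before the start of the main SNRPN transcript, which every library used. Capitals mark CpG, the dinucleotide that is methylated at imprinted control regions.
MEST upstream start: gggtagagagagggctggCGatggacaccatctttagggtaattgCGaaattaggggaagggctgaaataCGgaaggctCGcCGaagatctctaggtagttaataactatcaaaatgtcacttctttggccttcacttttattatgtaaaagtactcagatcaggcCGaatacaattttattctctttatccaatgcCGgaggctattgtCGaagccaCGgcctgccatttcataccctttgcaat
MEST downstream start: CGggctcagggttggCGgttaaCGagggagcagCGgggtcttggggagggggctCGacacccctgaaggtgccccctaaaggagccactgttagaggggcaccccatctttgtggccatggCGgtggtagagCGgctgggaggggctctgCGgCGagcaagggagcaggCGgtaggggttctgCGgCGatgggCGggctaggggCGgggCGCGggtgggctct
SNRPN start: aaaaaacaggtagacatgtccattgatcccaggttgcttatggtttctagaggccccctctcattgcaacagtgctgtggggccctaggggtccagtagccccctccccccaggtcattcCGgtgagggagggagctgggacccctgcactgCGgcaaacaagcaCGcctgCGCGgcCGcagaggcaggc

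The MEST downstream window held 16 CpG in 223 bases (70.0% G and C), against 9 in 246 bases (43.9%) for the upstream window. The SNRPN window held 6 CpG in 190 bases. Over the full 300-base windows, which run on into the first exon, the downstream MEST window held 25 CpG, the upstream window 13 and the SNRPN window 18, and the median of 34943 promoter windows was 14. A second upstream MEST window, at chr7:130486097-130486396, held 22 CpG (60.3% G and C). A second downstream window, at chr7:130491808-130492107, also held 22. The contrast in CpG between the MEST starts thus depends on the windows chosen. The hexamer TGCCGC, the core site of the imprint keeper ZFP57 when methylated, was searched on both strands of the full windows. It occurred 3 times in the first downstream MEST window and 2 times in the second, and 1 time in each upstream window. The SNRPN window held it 2 times, and 16.71% of all promoter windows held it at least 1 time. These are matches of letters, and binding was not measured.

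H19 is a non-coding RNA that also serves as the precursor of miR-675. The hairpin of this microRNA lies on the minus strand at chr11:1996759-1996831 and is contained in 4 of 12 GENCODE transcripts of H19, among them H19-209, the one that held most H19 counts here. Capitals mark bases 2 to 8, the seed that pairs with targets, and the seeds of the arms differ.
hsa-miR-675-5p: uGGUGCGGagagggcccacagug
hsa-miR-675-3p: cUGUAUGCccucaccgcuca

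An intron of MEST holds miR-335, at chr7:130496111-130496204 on the plus strand. Its hairpin lies downstream of both groups of MEST starts and is in none of the 17 spliced MEST transcripts. The capitals again mark the seed.
hsa-miR-335-5p: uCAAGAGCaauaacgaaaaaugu
hsa-miR-335-3p: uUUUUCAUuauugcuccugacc
Mature microRNAs are too short for these libraries, and no level of either was measured.

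IGF2 codes for insulin-like growth factor 2, a secreted growth factor of the fetus, and H19 is its neighbour on chromosome 11 (IGF2 at 2129112 to 2149603 and H19 at 1995176 to 2001470 on the minus strand of GRCh38). On each parental copy, enhancers shared by the pair are known to serve only 1 of them. OVKATE had much IGF2 and no H19, OVMANA had much H19 and no IGF2, and COV504 had both. The IGF2 level was 866.5 CPM in OVKATE (interval 826.4 to 908.1), 18.7 CPM in COV504, 1.7 CPM in OVTOKO, 1.5 CPM in SK-OV-3 and 0 CPM in OVMANA and COV362. It was 0.9 and 0 CPM in the IGROV-1 PromethION libraries and 0 and 0.3 CPM in the MinION libraries. OVKATE and COV504 each stood apart from the next line, while the intervals of neighbouring lines overlapped among the 5 others.

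The H19 level was 525.8 CPM in OVMANA (interval 493.4 to 559.7), 123.2 CPM in COV504 and 0.6 CPM in OVTOKO, where it rested on 1 count. H19 had no count in OVKATE, SK-OV-3, COV362 or any of the 4 IGROV-1 libraries. The 984 counts of OVMANA and 277 counts of COV504 did not overlap in their intervals. In COV504, the line with both genes, IGF2 had 42 counts and H19 had 277.

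**Figure D2:**
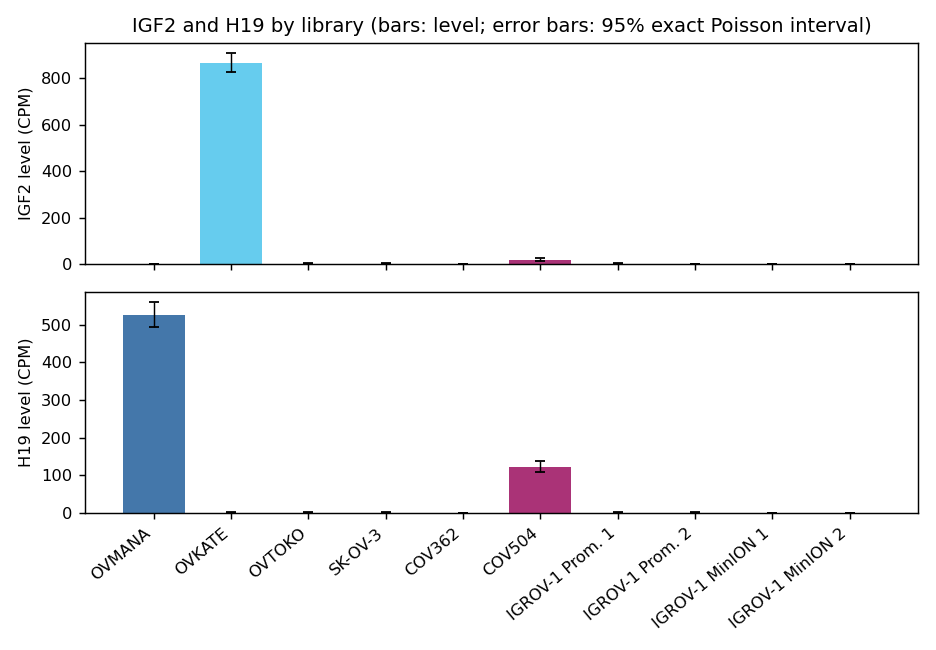
Levels of IGF2 (upper panel) and H19 (lower panel) in CPM in each library, as bars from 0 with 95% exact Poisson intervals. IGF2 reached 866.5 CPM in OVKATE, where H19 was at 0, and H19 reached 525.8 CPM in OVMANA, where IGF2 was at 0.

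The 6 lines were each compared with IGROV-1 in 1 fit across all genes by edgeR's quasi-likelihood test with Benjamini-Hochberg adjustment. These comparisons share the IGROV-1 libraries, and each other line has 1 library, so no replicate check, and is assumed to vary like IGROV-1. IGF2 passed the test in OVKATE (adjusted p = 1e-06) and COV504 (adjusted p = 0.00037). With 2 counts in the IGROV-1 PromethION libraries together, the ratio of CPM was 2023 in OVKATE (exact counting interval 559 to 16718) and 44 in COV504 (11 to 372). H19 passed in OVMANA (adjusted p = 4.7e-06) and COV504 (adjusted p = 1.6e-05). Against a floor of 3 counts over both IGROV-1 PromethION libraries, H19 was at least 818-fold higher in OVMANA and at least 192-fold higher in COV504. Both genes passed the expression filter only through the lines where they were high, so these calls are a description of those lines. The 4 calls were kept under every alternative that gave a value. Each alternative reused the same single library of the line against almost no IGROV-1 counts, so this adds no support.

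All IGF2 counts came from IGF2's own transcripts, and none from INS-IGF2 or INS. IGF2-205, which starts at 2139389, held 62.5% of the IGF2 counts in OVKATE (60.2% to 64.7%, Wilson interval) and 24.2% in COV504 (13.5% to 38.5%). IGF2-203 and others starting near 2137290 held 25.8% (23.8% to 27.9%) in OVKATE and 42.6% (29.1% to 57.8%) in COV504. IGF2-204, starting at 2138974, held 10.2% (8.8% to 11.7%) in OVKATE and 33.2% in COV504. The intervals of all 3 start groups did not overlap between the lines, at the closest 27.9% against 29.1%. They cover counting error only, and the COV504 shares rest on 42 estimated counts. The start of each count is that of the annotated transcript it was assigned to. Errors of this assignment, and whether reads reached the start, were not tested. Starts farther upstream held 1.5% of the IGF2 counts in OVKATE and 0 of 42 counts in COV504, which allows a share of up to 8.4%. The antisense transcript IGF2-AS reached 2.0 CPM in OVKATE and had no count in the other lines. H19 counts fell on both deposited transcripts, with 82.3% on H19-209 in OVMANA and 76.1% in COV504, and the rest on ENST00000411754.

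IGF2 acts through IGF1R and INSR, is cleared by IGF2R, and its messenger RNA is bound by IGF2BP1, IGF2BP2 and IGF2BP3. Of these 6 genes, all tested against IGROV-1, 0 were higher and 4 lower in OVKATE, the line with most IGF2. In OVTOKO 0 were higher and 5 lower, in COV362 1 and 3, in SK-OV-3 2 and 3, in COV504 1 and 2, and in OVMANA 1 and 1. The share of all genes called in either direction was 49.2% for OVKATE, 34.1% for OVTOKO, 42.5% for COV362, 41.8% for SK-OV-3, 43.5% for COV504 and 35.4% for OVMANA. The median log2 change of the 6, with low counts set at their bound or counting ratio, ran from -1.85 in OVKATE to -0.23 in OVMANA, where the medians of all genes were 0.01 and -0.01. The receptors are named for their role, outside the rule for named genes. The clearance receptor IGF2R was at 22.3 CPM in OVKATE, against 53.8 and 72.2 CPM in the IGROV-1 PromethION libraries (log2 change -1.80, SE 0.289, adjusted p = 0.0012). IGF1R, the signalling receptor, was at 3.0 CPM in OVKATE and 48.9 CPM in COV504, and at 3.0 CPM in both IGROV-1 PromethION libraries. IGF1R passed the expression filter only through the lines where it was high. It gave the only higher call in COV362, COV504 and OVMANA and is among those of SK-OV-3. These calls, and its part in the medians, are thus a description of those lines.

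The largest changes in this list were those of the RNA-binding proteins IGF2BP1 and IGF2BP3. IGF2BP1 was at 63.2 and 80.3 CPM in the IGROV-1 PromethION libraries and 52.9 CPM in OVMANA, and had no count in OVKATE, SK-OV-3 or COV504, at least 48-fold, 47-fold and 54-fold lower against a floor of 3 counts in each library. IGF2BP3 was at 46.1 and 43.0 CPM in the IGROV-1 PromethION libraries, with 1 count in OVKATE (0.5 CPM), a ratio of 90 (exact counting interval 16 to 3574). The line with most IGF2 thus had 0 or 1 count of both genes, while COV504, with less IGF2, had IGF2BP3 at 30.3 CPM. Low levels were not particular to lines with IGF2. COV362, without IGF2, had 2 counts of IGF2BP1, a ratio of 92 (exact counting interval 25 to 759), but an IGF2BP3 log2 change of -0.17. SK-OV-3, with 3 counts of IGF2, had an IGF2BP3 log2 change of -4.33. In OVTOKO the log2 changes were -3.17 for IGF2BP1 and -1.02 for IGF2BP3.

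CDKN1C, a maternally read inhibitor of cyclin-dependent kinases, lies on chromosome 11 at 2883213 to 2885773, in the neighbouring imprinted domain. COV504 was highest and OVTOKO lowest. Its level was 42.7 CPM in COV504, 26.8 CPM in SK-OV-3, 20.8 CPM in OVKATE, 11.8 CPM in COV362, 4.8 CPM in OVMANA and 1.2 CPM in OVTOKO. IGROV-1 lay at 7.3 and 8.6 CPM on the PromethION and at 6.0 and 9.6 CPM on the MinION. The intervals of neighbours in this order overlapped throughout, while that of COV504 (34.6 to 52.2 CPM) lay above that of OVKATE (up to 28.1 CPM).

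CDKN1C rose against IGROV-1 in COV504 by a log2 change of 2.34 (SE 0.302, adjusted p = 0.00047), in SK-OV-3 by 1.52 (SE 0.334, adjusted p = 0.0069) and in OVKATE by 1.08 (SE 0.349, adjusted p = 0.031). It fell in OVTOKO, with 2 counts against 37, a ratio of 6.9 (exact counting interval 1.8 to 59, adjusted p = 0.025 by edgeR). In COV362 and OVMANA its log2 change was 0.61 and -0.65, with adjusted p of 0.22 and 0.35. None of these 4 calls was made by DESeq2, whose adjusted p ran from 0.1 in COV504 to 0.56 in OVKATE. The OVKATE call was also lost without IGROV-1 PromethION replicate 1 and without the expression filter (adjusted p = 0.078 and 0.053), and the OVTOKO call without MinION replicate 1 (adjusted p = 0.055). CDKN1C-204 held most CDKN1C counts in each library with at least 10 of them, from 60.7% in IGROV-1 MinION replicate 1 to 90.2% in SK-OV-3.

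Neighbours of CDKN1C moved with their own patterns. PHLDA2, a growth-limiting gene known for its role in placenta, was at 0.9 CPM in both IGROV-1 PromethION libraries and at 1.1 and 3.1 CPM on the MinION. It was at 24.3 CPM in OVTOKO, 43.1 CPM in COV362, 112.2 CPM in OVMANA, 122.2 CPM in OVKATE, 246.0 CPM in COV504 and 451.3 CPM in SK-OV-3, and rose in all 6 lines with a log2 change of 4.82 (SE 0.504, adjusted p = 0.00023) in OVTOKO to 8.73 (SE 0.327, adjusted p = 1.7e-06) in SK-OV-3. KCNQ1OT1, the long antisense RNA that silences this domain on the paternal copy, was at 3.0 and 2.6 CPM in IGROV-1, 2.7 CPM in OVMANA and 3.0 CPM in SK-OV-3. It was at 12.1 CPM in OVTOKO, 14.9 CPM in COV362, 20.3 CPM in OVKATE and 26.2 CPM in COV504, and passed the test in these 4 lines, with log2 changes from 2.18 (SE 0.45) in OVTOKO to 3.14 (SE 0.364) in COV504. In COV504 and OVKATE, KCNQ1OT1 and CDKN1C were thus both higher than in IGROV-1, and in OVTOKO KCNQ1OT1 was higher and CDKN1C lower. PHLDA2 and KCNQ1OT1 passed the expression filter only through the lines where they were high, so their calls are a description of those lines. SLC22A18, a membrane transporter, was at 33.5 CPM in OVTOKO, 30.7 CPM in OVKATE and 12.9 CPM in COV504, against 5.6 and 5.2 CPM in IGROV-1, and rose in these 3 lines (log2 change 2.71, 2.21 and 1.18, adjusted p = 0.00041, 0.00067 and 0.03). It had no count in COV362, at least 4.6-fold lower against a floor of 3 counts (adjusted p = 0.0033).

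MEST, also called PEG1, codes for an alpha/beta hydrolase-fold protein and lies on chromosome 7 at 130486171 to 130506465. COV362 and OVKATE were high, SK-OV-3 had almost none, and the other lines lay close together. The MEST level was 853.3 CPM in COV362, 488.7 CPM in OVKATE, 153.0 CPM in COV504, 118.6 CPM in OVMANA, 89.0 CPM in OVTOKO and 2.0 CPM in SK-OV-3. IGROV-1 lay at 150.8 and 142.6 CPM on the PromethION and at 142.4 and 138.1 CPM on the MinION. In the order of levels, the intervals of COV504 and IGROV-1 overlapped, as did those of OVMANA and OVTOKO.

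Against IGROV-1, MEST rose by a log2 change of 2.58 in COV362 (SE 0.147, adjusted p = 9.8e-06) and 1.43 in OVKATE (SE 0.149, adjusted p = 0.00012). It fell in SK-OV-3, where it had 4 counts, with a log2 change of -6.37 (SE 0.319, adjusted p = 4.6e-06). It also fell in OVTOKO, with a log2 change of -0.64 (SE 0.173, adjusted p = 0.021), a call that was lost by DESeq2 (adjusted p = 0.32) and without IGROV-1 PromethION replicate 1, MinION replicate 1 or MinION replicate 2 (adjusted p = 0.066, 0.055 and 0.054). The changes in OVMANA (-0.24, adjusted p = 0.29) and COV504 (-0.02, adjusted p = 0.96) did not pass, and that of COV504 turned sign under 7 alternatives.

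The lines with high MEST differed from the rest in where the transcripts began. MEST-201 starts at 130492093, just after the CpG-rich window shown above, at the promoter known to be methylated on the maternal copy. MEST-202 and 2 others start at 130486171 to 130486354, at the upstream promoter, which is known to be used from both copies in some tissues. The downstream starts held 82.0% of the MEST counts in COV362 (80.3% to 83.6%, Wilson interval), 70.3% in OVKATE (67.4% to 73.1%) and 25.8% in OVTOKO (19.7% to 33.4%). They held 0.4% in OVMANA (0.1% to 2.5%), 0.5% in COV504 (0.2% to 2.1%) and 0.6% ± 0.1 (SD, n = 2) in the IGROV-1 PromethION libraries. The 3 lines with downstream starts lay far above the 3 without, and their intervals did not overlap with each other.

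The upstream starts held 95.7% of the MEST counts in OVMANA, 93.0% in COV504, 89.2% ± 2.2 (SD, n = 2) in IGROV-1 on the PromethION, 64.9% in OVTOKO, 25.4% in OVKATE and 9.9% in COV362. As levels, they were much closer: 57.8 CPM in OVTOKO, 84.2 CPM in COV362, 113.5 CPM in OVMANA, 124.1 CPM in OVKATE, 132.1 and 129.3 CPM in IGROV-1 and 142.3 CPM in COV504. The downstream starts ran from 0.5 CPM in OVMANA, 0.8 CPM in COV504 and 0.9 and 0.7 CPM in IGROV-1 to 23.0 CPM in OVTOKO, 343.6 CPM in OVKATE and 699.6 CPM in COV362. In COV362 and OVKATE the downstream starts thus made up most of the MEST level, and in OVTOKO the upstream starts did. In SK-OV-3 the 4 counts were too few for shares. MEST-204, starting between the groups at 130491329, held 3.9% of the counts in OVMANA to 12.3% in IGROV-1 MinION replicate 2. The start of each count is that of the annotated transcript it was assigned to, and whether the reads reached it was not tested.

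**Figure D3:**
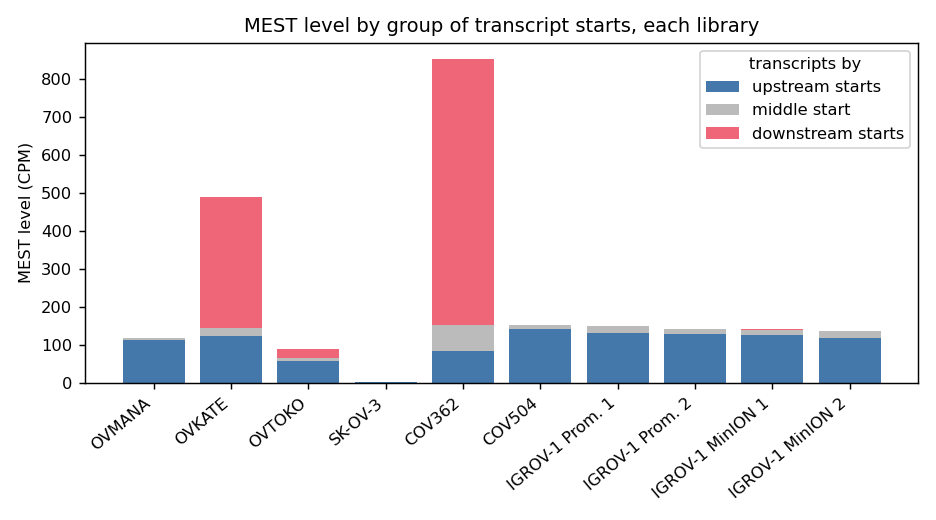
MEST level in CPM in each library, as bars from 0 stacked by where the transcripts start: upstream, middle or downstream. The downstream part makes up 699.6 CPM in COV362 and 343.6 CPM in OVKATE, while the upstream part lies between 57.8 and 142.3 CPM in all PromethION libraries other than SK-OV-3.

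The neighbours of MEST stayed low. COPG2, a coat protein gene on the opposite strand that overlaps its end, lay at 3.2 to 10.1 CPM over the 10 libraries and passed the test in no line (adjusted p from 0.37 in OVMANA to 0.83 in SK-OV-3). The antisense transcript MESTIT1 was not among the identifiers analysed. KLF14, a transcription factor gene farther along, had at most 2 counts in a library.

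PEG10, a gene derived from a retrotransposon that is needed for the placenta, lies on chromosome 7 at 94656325 to 94669695. IGROV-1 had the highest level and SK-OV-3 almost none. The PEG10 level was 271.2 and 231.1 CPM in IGROV-1 on the PromethION and 281.8 and 268.2 CPM on the MinION. It was 218.6 CPM in OVKATE, 181.5 CPM in OVTOKO, 103.8 CPM in COV362, 99.2 CPM in COV504, 34.7 CPM in OVMANA and 1.0 CPM in SK-OV-3. The intervals of IGROV-1 and OVKATE overlapped, as did those of OVKATE and OVTOKO and those of COV362 and COV504, while OVMANA and SK-OV-3 each stood apart.

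PEG10 fell in OVMANA by a log2 change of -2.79 (SE 0.218, adjusted p = 4.2e-05), in COV504 by -1.42 (SE 0.186, adjusted p = 0.00053) and in COV362 by -1.23 (SE 0.183, adjusted p = 0.0011). In SK-OV-3 it had 2 counts against 1173 in both IGROV-1 PromethION libraries, a ratio of 248 (exact counting interval 69 to 2050, adjusted p = 3.9e-06 by edgeR). In OVKATE the log2 change was -0.50 (adjusted p = 0.041), a call that 8 alternatives ended, among them DESeq2 (adjusted p = 0.51), the fit without mitochondrial ribosomal RNA (0.052), that with a 10 CPM filter (0.052), that without a filter (0.067), that with DESeq2 size factors (0.069) and those without IGROV-1 PromethION replicate 1, MinION replicate 1 or MinION replicate 2 (adjusted p = 0.18, 0.081 and 0.078). In OVTOKO it was -0.39 (adjusted p = 0.12). PEG10-202 held 97.8% to 99.1% of the PEG10 counts in every PromethION library other than SK-OV-3.

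SGCE, the sarcoglycan gene that shares its start region with PEG10 on the opposite strand and is likewise read from the paternal copy, did not follow it. SGCE was at 138.3 CPM in SK-OV-3, where PEG10 had 2 counts, and at 155.1 and 137.9 CPM in IGROV-1. Its other levels were 56.1 CPM in OVMANA, 96.8 CPM in COV362, 154.8 CPM in OVKATE, 183.3 CPM in OVTOKO and 183.7 CPM in COV504. SGCE fell in OVMANA (log2 change -1.32, SE 0.235, adjusted p = 0.003), as PEG10 did, and passed in no other line. Its log2 change in SK-OV-3 was -0.31 (SE 0.21, adjusted p = 0.27). The difference between both genes was not itself tested.

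**Figure D4:**
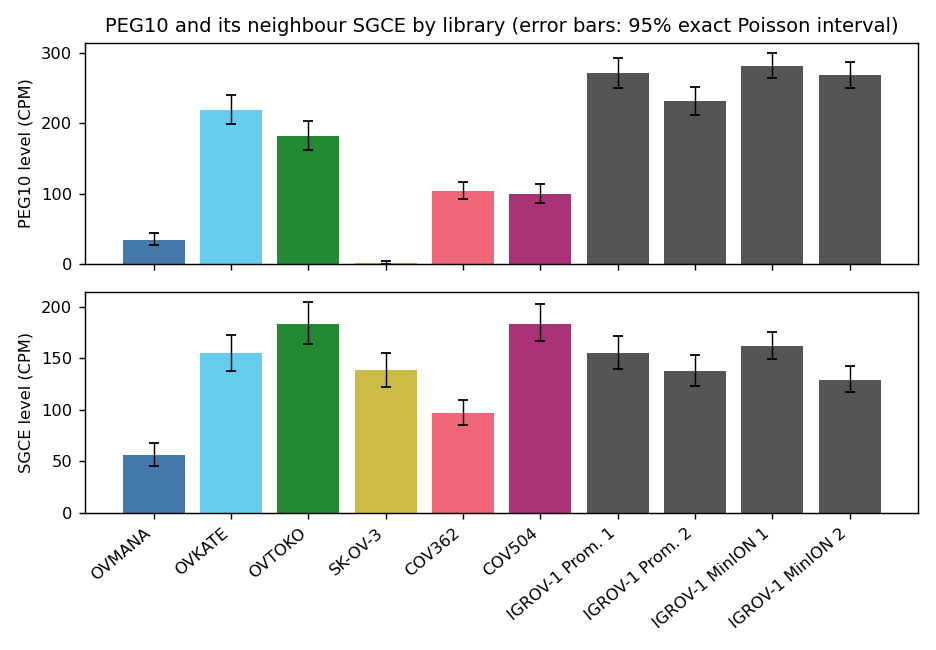
Levels of PEG10 (upper panel) and its neighbour SGCE (lower panel) in CPM in each library, as bars from 0 with 95% exact Poisson intervals. In SK-OV-3, PEG10 lies at 1.0 CPM and SGCE at 138.3 CPM.

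SNRPN codes for a protein of the small nuclear ribonucleoproteins that splice messenger RNA, on chromosome 15 at 24823637 to 24978723. It shares a first promoter with SNURF and with SNHG14, the long host RNA of small nucleolar RNAs that runs on across UBE3A. The joined identifier was the most even of the detected members, with 240.9 CPM in OVKATE, 223.4 CPM in OVMANA, 215.6 CPM in OVTOKO, 185.9 CPM in SK-OV-3, 157.5 CPM in COV362 and 137.0 CPM in COV504. IGROV-1 lay at 142.7 and 140.0 CPM on the PromethION and 141.8 and 162.8 CPM on the MinION. The intervals of every pair of neighbours in this order overlapped.

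SNRPN's own transcripts lay at 196.1 CPM in OVMANA, 198.8 CPM in OVKATE, 193.7 CPM in OVTOKO, 177.8 CPM in SK-OV-3, 133.6 CPM in COV362, 122.3 CPM in COV504 and 113.1 and 111.7 CPM in IGROV-1. The joined identifier rose in OVMANA by a log2 change of 0.72 (SE 0.151, adjusted p = 0.0068), in OVTOKO by 0.69 (SE 0.152, adjusted p = 0.0093) and in OVKATE by 0.47 (SE 0.151, adjusted p = 0.031). With SNRPN's own transcripts alone, these were 0.86, 0.86 and 0.52, with adjusted p of 0.0035, 0.0039 and 0.024. DESeq2 made none of the 3 calls (adjusted p = 0.14, 0.18 and 0.34), and the OVKATE call was also lost without PromethION replicate 1, PromethION replicate 2 or MinION replicate 1 of IGROV-1 (adjusted p = 0.1, 0.12 and 0.053) and without the expression filter (0.064). In SK-OV-3, COV362 and COV504 the joined identifier did not pass (log2 change 0.17, 0.20 and -0.12, adjusted p = 0.42, 0.33 and 0.56), and own transcripts in COV504 gave 0.05.

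SNHG14 differed from SNRPN within this unit. Its own transcripts lay at 28.6 CPM in OVKATE, 24.6 CPM in OVMANA, 21.8 and 22.2 CPM in IGROV-1, 20.2 CPM in OVTOKO, 12.4 CPM in COV362, 11.1 CPM in COV504 and 5.9 CPM in SK-OV-3. SNHG14 fell in SK-OV-3 (log2 change -2.08, SE 0.329, adjusted p = 0.0016), in COV504 (-1.06, SE 0.279, adjusted p = 0.016) and in COV362 (-0.77, SE 0.265, adjusted p = 0.047). As a share of the joined counts, SNHG14 starts held 3.2% in SK-OV-3 (1.9% to 5.6%, Wilson interval), 15.6% ± 0.4 (SD, n = 2) in IGROV-1 on the PromethION and 7.9% to 11.9% in the other lines. Starts just after the window shown above held 83.6% of the joined counts in an IGROV-1 library to 96.3% in SK-OV-3, so SK-OV-3 had SNRPN at a level between the other lines with the lowest SNHG14. SNRPN-202 was the leading transcript in every library, with 73.8% to 93.2% of the joined counts, and SNHG14-212 held 1.6% to 13.7%. SNURF's own transcripts lay at 2.0 CPM in SK-OV-3, on 4 counts. They lay at 7.8 and 6.0 CPM in IGROV-1 on the PromethION, a log2 change of -1.96 (SE 0.598) in SK-OV-3. Their other levels were 1.7 CPM in OVTOKO, 2.7 CPM in OVMANA, 3.6 CPM in COV504, 11.4 CPM in COV362 and 12.9 CPM in OVKATE. Low SNURF was thus not particular to SK-OV-3.

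Farther along chromosome 15, NDN, a paternally read gene of the same imprinted domain, had 116 counts (45.4 CPM) in COV362 and none in the other 9 libraries. This was at least 71-fold higher against a floor of 3 counts over both IGROV-1 PromethION libraries. NDN passed the expression filter only through COV362, so the value is a description of that library. MAGEL2 and MKRN3, its neighbours, had at most 2 counts in a library. UBE3A, read from the maternal copy in neurons, lay at 33.0 to 64.5 CPM over the 10 libraries and passed the test in no line.

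MEG3, a non-coding RNA, and DLK1, a membrane ligand of the Notch family, lie together on chromosome 14, DLK1 at 100725705 to 100738224 and MEG3 at 100779410 to 100861031. All 18 transcripts of the MEG3 identifier and all 3 of DLK1 had 0 counts in all 10 libraries. Their neighbours RTL1, MEG8, MEG9 and DIO3 likewise had 0 counts in each, so none of these 6 genes was detectable at this depth in any of the 7 lines. NNAT, a small membrane protein gene on chromosome 20 at 37521206 to 37523693, had 0 counts in all libraries on both of its transcripts. NNAT lies inside BLCAP on the opposite strand, and BLCAP was present, at 24.3 CPM in OVTOKO to 113.3 CPM in OVKATE. PEG3, a zinc finger gene on chromosome 19 at 56810077 to 56840728, had 1 count, in IGROV-1 PromethION replicate 2, and ZIM2 and MIMT1 beside it had none of their own.

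Over the fits against IGROV-1, 6 members passed the expression filter and 4 (MEG3, DLK1, PEG3 and NNAT) were too low. IGF2 and H19 passed it only through the lines where they were high, so the counts here are over PEG10, MEST, SNRPN and CDKN1C. In OVKATE 3 of these 4 were higher and 1 lower, where 26.8% of all 13030 genes were higher and 22.4% lower. In COV504 1 was higher and 1 lower (24% and 19.6% of all genes), and likewise in OVMANA (18.9% and 16.5%) and COV362 (23.7% and 18.8%). In SK-OV-3 1 was higher and 2 lower (22% and 19.8%), and likewise in OVTOKO (18.2% and 15.9%). With so many genes called in each line, these counts are not particular to the members. No single direction held within SK-OV-3, where MEST and PEG10 fell and CDKN1C rose. The fitted median over the 6 genes that passed the filter was 0.08 there and 0.15 in OVTOKO. It was -3.10 and -0.52 with low counts at their bound or ratio and genes under the floor in both lines left out, so the sign of these medians turned with IGF2 and H19 and nothing is read from them.

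**Figure D5:**
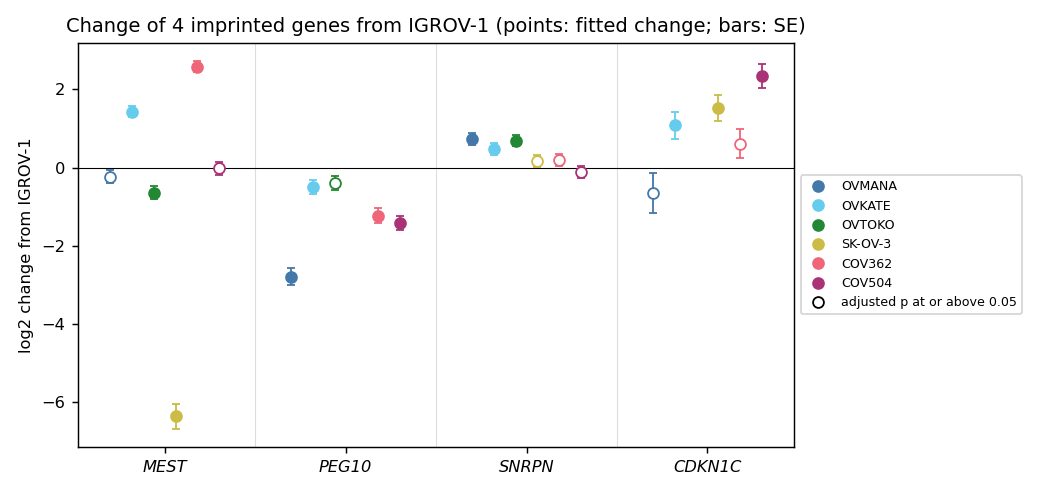
Log2 change from IGROV-1 with its SE for MEST, PEG10, SNRPN (joined identifier) and CDKN1C in the 6 other lines, filled where the adjusted p was under 0.05. Changes that rest on 3 counts or fewer in 1 group are left out (PEG10 in SK-OV-3 and CDKN1C in OVTOKO). MEST spans from -6.37 in SK-OV-3 to 2.58 in COV362, while SNRPN lies between -0.12 and 0.72.

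Between the instruments, the members of IGROV-1 did not pass the test. Of 4 members tested on the 4 IGROV-1 libraries, 0 were called by edgeR, 0 had an unadjusted p under 0.05, and DESeq2 called 0, where 0.817% of all 10041 genes were called, 0.11% higher and 0.707% lower on the MinION. The log2 change from PromethION to MinION was 0.09 for PEG10 (SE 0.134), -0.10 for MEST (SE 0.125), 0.06 for SNRPN (SE 0.123) and -0.08 for CDKN1C (SE 0.334), with adjusted p between 0.72 and 0.93. With 2 libraries each, changes of this size could not be told from 0. Transcript usage within MEST and SNRPN was tested too, and both had an adjusted p of 1 by edgeR's usage test, where 5.81% of 2979 genes were called. The MEST downstream starts held 1.2% ± 0.2 (SD, n = 2) on the MinION, beside 0.6% ± 0.1 (SD, n = 2) on the PromethION.

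Factors known to keep imprints were given as a list of 9 genes. ZFP57, which binds the hexamer described above, and DPPA3 had no count in any library. Of the 7 others, 1 was higher and 3 lower in SK-OV-3, 2 and 1 in COV504, 1 and 1 in COV362, 0 and 2 in OVKATE, and 0 and 1 in both OVTOKO and OVMANA. The shares of all genes higher and lower were 22% and 19.8% in SK-OV-3, 24% and 19.6% in COV504, 23.7% and 18.8% in COV362, 26.8% and 22.4% in OVKATE, 18.2% and 15.9% in OVTOKO and 18.9% and 16.5% in OVMANA. The list's median log2 changes ran from -0.44 in COV362 to 0.24 in COV504. The largest changes were those of UHRF1 and ZNF445. UHRF1 brings the methyltransferase DNMT1 to replicated DNA. It fell in SK-OV-3 to 2.5 CPM, against 14.1 and 11.6 CPM in IGROV-1 (log2 change -2.54, SE 0.492, adjusted p = 0.0038), and in OVMANA to 3.2 CPM (-1.92, SE 0.482, adjusted p = 0.015). ZNF445, a zinc finger protein that keeps imprints, fell in COV504 to 4.0 CPM, against 12.4 and 12.9 CPM (-1.72, SE 0.423, adjusted p = 0.011), and in OVKATE to 4.9 CPM (-1.64, SE 0.412, adjusted p = 0.011).

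The genes whose pattern over the 7 lines was most like that of a member, among 10671 candidates with a mean of at least 5 CPM, were found by Pearson's r of log2(CPM + 1). They were TFF3 (r = 0.986) and APCDD1 (0.982) for IGF2, and NTS (0.997) and DOK4 (0.955) for H19. For PEG10 they were STOM (0.956) and PIMREG (0.955), for MEST RPA3 (0.982) and MCEE (0.976), for SNRPN SYCP2 (0.976) and PIK3CD (0.957), and for CDKN1C E4F1 (0.989) and TAF7 (0.972). With 7 points and this many candidates, these values describe the libraries only, and no gene was kept for any member when Spearman's rank correlation was used.

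Markers were read in the same libraries to check the labels. Of 4 Mullerian and ovarian markers, PAX8, a factor of Mullerian epithelium, lay at 84.1 to 339.8 CPM in all 10 libraries. The others were less even: all 4 were detected in OVKATE and COV362, 3 in OVMANA and COV504, and 2 in SK-OV-3. In OVTOKO 1 was detected, in the IGROV-1 PromethION libraries 1 and 2, and in each MinION library 2. Of 5 epithelial markers, all were detected in the 6 other lines, at a summed 459.6 CPM in OVTOKO to 8791.4 CPM in COV504. IGROV-1 on the PromethION had 4 of 5, at a summed 410.1 and 1222.9 CPM, with CDH1 at 0 and EPCAM at 0.9 and 0.4 CPM. Of 5 stromal markers, SK-OV-3 and COV504 each had 4, at a summed 306.4 and 88.4 CPM, and COV362 had 3, at 5.9 CPM. The other PromethION libraries had 1 or 2, at a summed 0.6 to 30.2 CPM. Of 4 germ and pluripotent cell markers, NANOG and DPPA4 were at 0 in every library. POU5F1 was at 221.2 CPM in OVMANA and 111.1 and 57.6 CPM in the IGROV-1 PromethION libraries, and LIN28A was at 109.8 and 172.7 CPM in IGROV-1 and 0 in the other lines. Of 3 neuroendocrine markers, SCG2 was at 166.0 CPM in COV504 and at most 1.2 CPM elsewhere, CHGA was at 16.2 CPM in SK-OV-3, 11.6 CPM in COV504, 8.2 CPM in COV362 and 3.7 CPM in OVMANA, and SYP was at 0 to 0.6 CPM. WT1, another marker of the ovary, was at 76.2 CPM in OVKATE, 0.4 CPM in COV362 and 0 elsewhere. The macrophage marker CD68, by its own transcripts, was highest in OVTOKO and at most 13.4 CPM elsewhere. It was the only 1 of 4 leukocyte markers detected in OVTOKO. CD3E and MS4A1 were at 0 in every library, and PTPRC had at most 1 count in a library. Each library had 1 or 2 of 3 endothelial markers, at a summed 0.5 CPM in OVMANA to 25.8 CPM in COV504. The trophoblast markers summed to 0 to 4.4 CPM in a PromethION library, with CGA at 0 throughout. Several of these markers differed between the lines, and their part in the member results was not tested.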

How the data were processed

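The authors deposited estimated counts per transcript for each of 10 libraries, which need not be whole, and a TPM value per transcript. The deposited TPM equalled the transcript's CPM to within 5.6e-11, so it is not scaled by length. Reads were aligned with minimap2 2.24-r1122 on GRCh38, per the submitters' processing notes. Quantifier settings, annotation release, use of strand and filters were not given in the sources used here, so antisense and overlapping genes are uncertain. RNA was purified on columns and libraries were made by ligation with a 30 min end repair, per the labels' protocols.

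Of the 87 member transcripts, 86 were found in GENCODE 29, 68 with the same start and end. Counts were summed per gene identifier and rounded. All line comparisons used 1 fit over the 10 libraries in edgeR 4.0.16 (R 4.3.3), by its quasi-likelihood test, two-sided, with TMM and the default expression filter. Only IGROV-1 had replicates, which leaves 2 residual degrees of freedom and 1 estimate of spread for all lines, so p-values measure the spread between those libraries, which may be technical. The instrument comparison used the 4 IGROV-1 libraries, and transcript usage was tested by edgeR's exon-level procedure with a Simes p. Calls were made at an adjusted p under 0.05. SE came from the change and the F statistic. The IGROV-1 replicates were kept as such, since a chi-square over its degrees of freedom was 4.04 on the PromethION and 6.27 on the MinION.

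The fits were tested on simulated data with 200 changed genes. The OVKATE fit recovered 32% at a log2 change of 1 (11803 genes) and 80% at 2 (11762 genes). The instrument fit recovered 66% at 1 (10013 genes). Among the genes called, unchanged ones made up 1.5% and 6.4% in the OVKATE fit and 2.9% in the instrument fit. The simulation used the same spread for all genes and changed far fewer genes than were called in OVKATE, so these shares may not carry over. DESeq2 1.42.0, other scalings, filters and left-out libraries were alternatives, and own-gene sums were added after seeing the data. The members and lists were chosen with earlier results of these data known. The text names all 10 members, their leading transcripts, neighbours with at least 10 counts in a library, the 2 genes with the largest changes of each list, by bound or counting ratio where counts were low, and the 2 most alike genes. Neighbours with fewer counts are named as low, which goes beyond that rule.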

Additional observations from a re-analysis of the deposited data

How the results depend on the processing

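Over the 32 changes of members and all alternatives, 11 values turned sign, all without a call. They belonged only to MEST and SNRPN in COV504 and to PEG10 and CDKN1C between instruments. MEST in COV504 became 0.06 with DESeq2 size factors in edgeR and with DESeq2, 0.01 with a 10 CPM filter, 0.03 without mitochondrial ribosomal RNA and with all 4 IGROV-1 libraries as reference, and from -0.06 to 0.03 without a replicate. SNRPN in COV504 became 0.05 with own-gene sums. Between instruments, leaving out a replicate gave -0.02 to 0.21 for PEG10 and -0.39 to 0.19 for CDKN1C, of which 0.04 without PromethION replicate 2. Of the called changes, 9 were lost by DESeq2 and 17 losses came from other settings, each named beside its result. The causes were not tested. Calls of neighbours and of listed genes are by edgeR, without the alternatives beside them, and may be no firmer than those of members. Genes called between instruments numbered 82, but 15 without a filter, 49 with all 10 libraries and 4 to 209 without a replicate. The labels do not say that replicate numbers mark a shared IGROV-1 culture. With the replicate number as a block, 1979 genes were called, and same-numbered libraries deviated together (correlation 0.47 over 7871 genes). The line fits treat these libraries as independent, so their 2 residual degrees of freedom may overstate what is known of the spread. No member's call changed with the block. DESeq2 called 1442 genes in OVMANA, 2095 in OVKATE, 1298 in OVTOKO, 1672 in SK-OV-3, 1565 in COV362 and 1764 in COV504, and OVTOKO had 2890 to 4398 without a replicate, lowest without MinION replicate 1. Genes with changed usage numbered 173, but 100 with a 10 CPM filter and 40 to 59 without a replicate. Without joined identifiers, IGF2, MEG3, PEG3 and SNRPN drop out, so that setting gave no value for them. At 5 counts, OVTOKO had 3 members instead of 6 and SK-OV-3 2 instead of 5, and thinning to 1729782 counts changed no number of members detected. Ratios that rest on 1 to 3 counts carry the wide counting intervals given beside them. Most levels on so few counts are given without an interval and are as uncertain.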

Other observations

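HYMAI, an imprinted gene held under 2 identifiers, was left out here. Of 12 further imprinted genes with a single identifier in the files, 11 were tested against IGROV-1. In SK-OV-3 5 were higher and 2 lower, in OVKATE 4 and 2, in COV362 3 and 4, and in each of COV504, OVTOKO and OVMANA 3 and 2. The share of all genes called in either direction was 41.8% for SK-OV-3, 49.2% for OVKATE, 42.5% for COV362, 43.5% for COV504, 34.1% for OVTOKO and 35.4% for OVMANA. Their median log2 change, with low counts at their bound or ratio, lay between -0.41 in OVMANA and 0.40 in OVTOKO. FAM50B and ZDBF2 had no count in the IGROV-1 PromethION libraries and passed the expression filter only through the lines where they were high. Each line's higher calls include FAM50B, ZDBF2 or both, so these calls and the medians only describe those lines. By bound or counting ratio, the largest changes were those of FAM50B, a paternally read gene without introns, and of the identifier that joins L3MBTL1, a chromatin protein gene, with SGK2 and Z98752.3. FAM50B had no count in any of the 4 IGROV-1 libraries and 1 count in OVMANA. It was at 44.7 CPM in COV362, 30.7 CPM in COV504, 25.2 CPM in OVKATE, 16.2 CPM in SK-OV-3 and 13.9 CPM in OVTOKO, at least 70-fold, 48-fold, 39-fold, 25-fold and 22-fold higher against a floor of 3 counts over both IGROV-1 PromethION libraries. The joined L3MBTL1 identifier had 1 count in COV504 and 55 in both IGROV-1 PromethION libraries together, a ratio of 26 (exact counting interval 4.6 to 1065, adjusted p = 0.00098 by edgeR). ZNF331, the second by the fitted change, had no count in OVTOKO and 63 counts in both IGROV-1 PromethION libraries together, at least 7.8-fold lower against a floor of 3 counts.

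GNAS, which codes for a stimulatory G protein subunit, rose in all 6 lines. It was at 775.7 and 865.1 CPM in the IGROV-1 PromethION libraries and at 1489.9 CPM in COV362 to 3186.2 CPM in OVKATE, with log2 changes from 0.90 (SE 0.153, adjusted p = 0.0021 by edgeR) in COV362 to 1.69 (SE 0.151, adjusted p = 8.3e-05 by edgeR) in OVMANA. RB1, the retinoblastoma tumour suppressor, fell in COV362 to 2.7 CPM, against 34.2 and 33.9 CPM in IGROV-1 (log2 change -3.57, SE 0.396, adjusted p = 0.00026 by edgeR). GNAS and RB1 were named after their values were seen.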
